A study of Mus musculus with 21 samples.

Results

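The genes of endothelial junctions and endothelial identity were described in cells derived from mouse pluripotent stem cells (PSCs) and in the cells they were compared with. The members were chosen by symbol, and all 10 were found, among 19321 genes with values in day 5 total cells and among 27968 genes in sorted cells. They are the junction genes Cdh5, Pecam1 and Cldn5, the endothelial function genes Plvap, Nos3 and Vwf, the receptors Tie1 and Tek, and the ligands Angpt1 and Angpt2. Expression was given as FPKM, a fragment count scaled by transcript length and library size, with 3 replicates in each of 7 groups.

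In day 5 total cells, colonies from a 3D self-assembling peptide induction of PSCs (129/ola background) had been cultured on OP9, a mouse stromal cell line (3D+OP9), or on a 0.1% gelatin coating without stromal cells (3D+0.1% gelatin). OP9 cells are murine too, so total cells from 3D+OP9 could hold stromal RNA. D5-LSKCD201+ and D5-LSKCD201- cells were sorted by flow cytometry from the 3D+OP9 coculture on day 5 and share that background. LSK stands for Lin- Sca-1+ c-kit+, and CD201 is the endothelial protein C receptor. mESC (129/ola) were sorted for SSEA-1. FL-LSKCD201+ cells came from fetal liver of C57BL/6 embryos at E12.5, and BM-LSKCD201+ cells from bone marrow of C57BL/6 mice aged 6 to 8 weeks. The labels give 129/ola for every PSC-derived group, while the study's methods name ESC lines of 129/ola and of C57BL/6 origin. By the labels, strain and origin cannot be told apart in any comparison of PSC-derived cells with FL-LSKCD201+ or BM-LSKCD201+ cells. The labels do not say whether replicates were separate cultures or animals. The study calls them biological replicates and speaks of independent experiments, and p-values measure the spread between these libraries.

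Endothelial cells line vessels and are held together by adherens junctions, built on the cadherin encoded by Cdh5, and by tight junctions, in which Cldn5 is the main claudin. The angiopoietins Angpt1 and Angpt2 bind the receptor tyrosine kinase Tie2, encoded by Tek. Angpt1 is the agonist, usually made by perivascular and other supporting cells, and Angpt2 is made by endothelium and opposes or modulates Angpt1. In the embryo, hematopoietic stem cells arise from hemogenic endothelium, and several of these genes are also active in early hematopoietic cells.

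The table of RefSeq promoter sequences used here (GRCm38.p6) was matched by 3 of the 10 members, Tek, Tie1 and Cldn5. These 3 are shown because they were in that table, and all are higher in D5-LSKCD201+ cells than in the other sorted cells. Each runs from 250 bases before to 50 bases after the start that RefSeq annotates, and capitals mark matches on either strand to ETS letters (CAGGAA or CCGGAA), SOX letters (ACAATG or ACAAAG) or GATA letters (AGATAA or TGATAA), motifs of factor families used in endothelial and blood cells. The Tek promoter lies at chr4:94739039-94739338 on the plus strand, the Tie1 promoter at chr4:118489800-118490099 on the minus strand and the Cldn5 promoter at chr16:18776597-18776896 on the plus strand. The start of the Tie1 gene given further on, from the GENCODE annotation, lies 212 bases upstream of the RefSeq start and within this window, and for Tek and Cldn5 both starts are the same base.
Tek: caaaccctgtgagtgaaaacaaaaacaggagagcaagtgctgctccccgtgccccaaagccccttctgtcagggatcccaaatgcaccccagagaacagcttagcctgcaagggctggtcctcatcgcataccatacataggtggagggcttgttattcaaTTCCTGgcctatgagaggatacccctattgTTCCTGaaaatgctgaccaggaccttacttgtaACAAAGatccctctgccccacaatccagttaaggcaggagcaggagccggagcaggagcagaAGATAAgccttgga
Tie1: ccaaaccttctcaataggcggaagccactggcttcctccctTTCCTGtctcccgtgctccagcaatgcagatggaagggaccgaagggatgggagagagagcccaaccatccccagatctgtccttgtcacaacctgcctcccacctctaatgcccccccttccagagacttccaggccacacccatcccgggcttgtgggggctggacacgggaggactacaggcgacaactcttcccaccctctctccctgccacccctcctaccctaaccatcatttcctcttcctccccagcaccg
Cldn5: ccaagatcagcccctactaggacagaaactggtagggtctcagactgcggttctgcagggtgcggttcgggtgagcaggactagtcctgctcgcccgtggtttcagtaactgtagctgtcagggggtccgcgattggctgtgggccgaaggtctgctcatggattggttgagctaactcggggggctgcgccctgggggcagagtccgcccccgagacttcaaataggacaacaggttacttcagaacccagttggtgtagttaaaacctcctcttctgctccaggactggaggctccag
The Tek promoter held 2 ETS matches, both read on the opposite strand, with 1 SOX and 1 GATA match. The Tie1 promoter held 1 ETS match, and the Cldn5 window held 0 matches to these letters. Among 32851 promoters of the same length, 41.4% held an ETS match, 28.6% a SOX match and 18.6% a GATA match, so these matches are common and are given as a description.

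The libraries were first read for the identity of the sorted cells. Procr, which encodes CD201 and so was part of the sort, was at 57.9 to 61.9 FPKM in D5-LSKCD201+ and at 3.02 to 3.82 FPKM in D5-LSKCD201-. Of 15 hematopoietic marker genes, the sum was 56.3 to 62.5 FPKM in D5-LSKCD201+ and 42.7 to 44.0 FPKM in D5-LSKCD201-, against 1706 to 2067 FPKM in FL-LSKCD201+ and 2291 to 2525 FPKM in BM-LSKCD201+ and 27.2 to 28.8 FPKM in mESC. Between the D5 groups 7 of the 15 averaged higher and 8 lower in D5-LSKCD201+. Beside 10.8% higher and 13.9% lower among all genes tested, 3 of 13 tested markers were higher and 3 lower by limma. At an unadjusted p under 0.05 the markers gave 5 and 4, beside 30% and 41.1% of all genes. Of the 3 lower, 1 (Myb) passed the filter on low values only through D5-LSKCD201- and so had to be lower. The higher sum came mainly from Laptm5 (19.2 and 8.84 FPKM in D5-LSKCD201+ and D5-LSKCD201-), Spi1 (12.96 and 5.90 FPKM) and Coro1a (12.2 and 8.41 FPKM), while Runx1 (1.80 and 5.39 FPKM) and Myb (0.448 and 3.32 FPKM) averaged lower. Ptprc, the pan-leukocyte marker CD45, averaged 0.409 FPKM in D5-LSKCD201+ and 0.633 FPKM in D5-LSKCD201-, against 43.5 and 66.8 FPKM in FL-LSKCD201+ and BM-LSKCD201+. The 10 pluripotency markers summed to 3783 to 4388 FPKM in D5-LSKCD201-, 76.1 to 85.6 FPKM in D5-LSKCD201+ and 6980 to 7547 FPKM in mESC. The hematopoietic sums of both D5 groups thus lay nearer to mESC than to FL-LSKCD201+ or BM-LSKCD201+, and the D5 groups are named here by their sort and not as hematopoietic cells. In these bulk libraries, fewer cells of a type and less RNA per cell cannot be told apart. Replicate 2 of D5-LSKCD201-, replicate 1 of FL-LSKCD201+, replicate 1 of BM-LSKCD201+ and replicate 3 of 3D+OP9 stood apart from the other two of their group. The standard deviation of the log2 difference between the closer pair was 0.0918 to 0.125, and to the library apart it was 0.277 to 0.481.

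Of the 10 genes, 8 were higher in D5-LSKCD201+ cells than in D5-LSKCD201- cells and 0 were lower, by limma, with 0.05 as the limit of the adjusted p and a log2 fold change of 1 or more in either direction. Among all 13691 genes tested, 10.8% were higher and 13.9% lower. At an unadjusted p under 0.05, 9 members were higher and 0 lower, beside 30% and 41.1% of all genes. The median log2 fold change of the 10 was 4.25, and that of all genes was -0.12. The ratios of mean FPKM of these 8 genes ranged from 6.09 for Vwf to 38.1 for Tie1. Angpt1 and Angpt2 did not pass the thresholds.

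**Figure D1:**
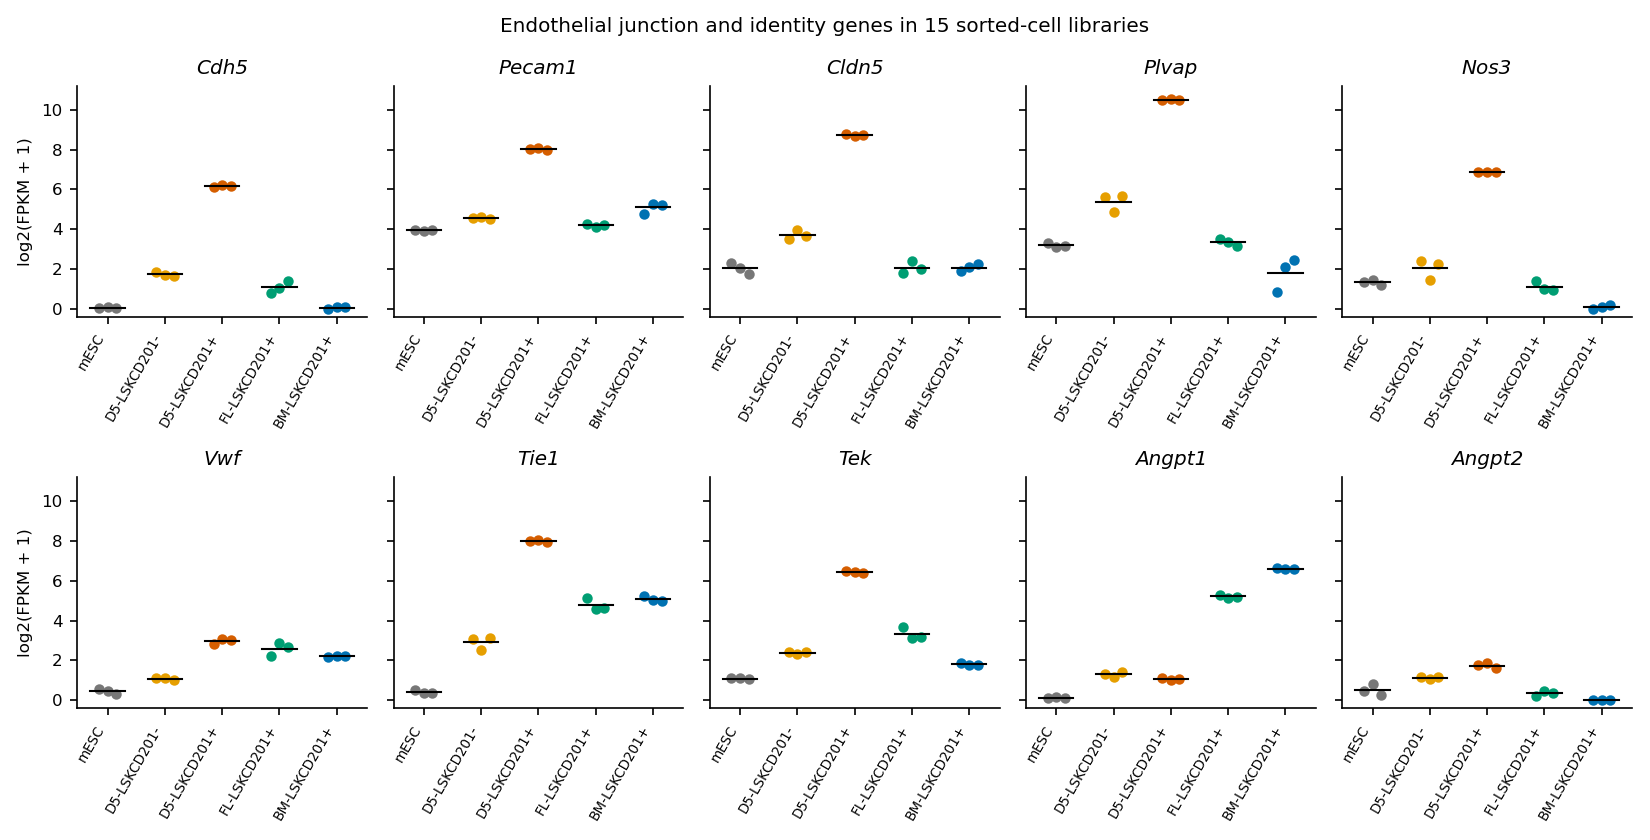
Expression of the 10 genes in the sorted cells, on a log2(FPKM + 1) scale, by group. Each point is 1 library (3 per group) and each line is the group mean. D5-LSKCD201+ libraries lie above the other 4 groups for Cdh5, Pecam1, Cldn5, Plvap, Nos3, Tie1, Tek and Angpt2, and BM-LSKCD201+ libraries are highest for Angpt1.

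Cdh5 (VE-cadherin, chr8:104101625-104144511 in GRCm38, plus strand) holds endothelial cells together at adherens junctions. It was at 67.6, 73.6 and 71.2 FPKM in D5-LSKCD201+ and at 2.55, 2.23 and 2.16 FPKM in D5-LSKCD201-. All D5-LSKCD201+ libraries were above all D5-LSKCD201- libraries, and the log2 fold change was 4.44 (SE 0.08, limma adjusted p = 4.5e-08). Levels were 0.733, 1.05 and 1.60 FPKM in FL-LSKCD201+ and at most 0.0679 FPKM in mESC and BM-LSKCD201+, where 1 BM-LSKCD201+ library was at 0.

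Pecam1 (CD31, chr11:106654217-106750628, minus strand) is an adhesion receptor of endothelial cell contacts that platelets, leukocytes and pluripotent cells also carry. It was at 259.978, 268.872 and 251.242 FPKM in D5-LSKCD201+ and at 22.8, 23.8 and 22.1 FPKM in D5-LSKCD201-. The groups did not overlap, and the log2 fold change was 3.45 (SE 0.05, limma adjusted p = 4.2e-08). It was present in every other group, at 14.1 to 14.4 FPKM in mESC, 16.4 to 17.9 FPKM in FL-LSKCD201+ and 26.2 to 37.6 FPKM in BM-LSKCD201+.

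Cldn5 (claudin-5, chr16:18776847-18778262, plus strand) seals endothelial tight junctions. It reached 443, 415 and 429 FPKM in D5-LSKCD201+ and 10.2, 14.7 and 11.7 FPKM in D5-LSKCD201-. The log2 fold change was 5.04 (SE 0.12, limma adjusted p = 1.2e-07), with no overlap. In mESC, FL-LSKCD201+ and BM-LSKCD201+ it was between 2.37 and 4.20 FPKM, and these groups overlapped.

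Plvap (chr8:71497765-71511752, minus strand) forms the diaphragms of endothelial fenestrae and caveolae and was the most abundant member in both D5 groups. It was at 1457, 1476 and 1454 FPKM in D5-LSKCD201+ and at 47.5, 27.7 and 49.5 FPKM in D5-LSKCD201-. By mean level it ranked 20 among the 27968 genes in D5-LSKCD201+. The log2 fold change was 5.15 (SE 0.20, limma adjusted p = 9.5e-07), and it was 4.89 without replicate 2 of D5-LSKCD201-, the lowest library of its group. In mESC it was at 7.72 to 8.75 FPKM, in FL-LSKCD201+ at 7.98 to 10.4 FPKM and in BM-LSKCD201+ at 0.808, 3.21 and 4.49 FPKM.

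Nos3 (endothelial nitric oxide synthase, chr5:24364810-24384474, plus strand) makes the vasodilator nitric oxide. It was at 118, 118 and 115 FPKM in D5-LSKCD201+ and at 4.35, 1.68 and 3.74 FPKM in D5-LSKCD201-. The log2 fold change was 4.85 (SE 0.24, limma adjusted p = 2.8e-06), and 4.55 without replicate 2 of D5-LSKCD201-, again the lowest. In BM-LSKCD201+ it was at 0, 0.0432 and 0.138 FPKM. Nos3 shares 1040 of its 4132 exon bases with the antisense gene Gm15587 and 294 with Atg9b, and the sources used here do not give the strand setting of the counting. Mean levels of those 2 genes in D5-LSKCD201+ were 0.362 and 1.03 FPKM.

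Vwf (von Willebrand factor, chr6:125546774-125686679, plus strand) carries platelets to injured vessel walls and is made by endothelial cells and megakaryocytes. It was at 6.03, 7.29 and 7.22 FPKM in D5-LSKCD201+ and at 1.15, 1.20 and 1.02 FPKM in D5-LSKCD201-. The log2 fold change was 1.88 (SE 0.11, limma adjusted p = 5.0e-06). The sum of 11 megakaryocyte markers was also higher in D5-LSKCD201+ (78.2 to 83.7 FPKM) than in D5-LSKCD201- (7.80 to 9.88 FPKM). It was highest in FL-LSKCD201+, at 102 to 114 FPKM, and was 64.0 to 84.5 FPKM in BM-LSKCD201+. The part of this sum in the Vwf result was not tested. Of the 11, Treml1 was at 0 in every D5-LSKCD201+ library and 5 markers averaged under 0.1 FPKM. Most of the sum came from Itga2b (45.2 FPKM in D5-LSKCD201+ and 3.78 FPKM in D5-LSKCD201-) and Clec1b (29.9 and 2.80 FPKM), while 6 of the 11, among them Gp5 (0.0602 and 0.449 FPKM), averaged lower in D5-LSKCD201+.

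Tek (Tie2, chr4:94739289-94874976, plus strand) is the angiopoietin receptor, and Tie1 (chr4:118471191-118490061, minus strand) is its related partner, which binds no angiopoietin with high affinity alone. Tek was at 88.8, 86.3 and 83.1 FPKM in D5-LSKCD201+ and 4.31, 3.93 and 4.31 FPKM in D5-LSKCD201-, with a log2 fold change of 4.07 (SE 0.07, limma adjusted p = 4.2e-08). Tie1 was at 254, 261 and 245 FPKM in D5-LSKCD201+ and 7.43, 4.84 and 7.66 FPKM in D5-LSKCD201-, with a log2 fold change of 5.08 (SE 0.15, limma adjusted p = 2.8e-07). Both receptors differed by more than the spread between replicates.

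Angpt2 (chr8:18690263-18741562, minus strand) was at 2.38, 2.59 and 2.07 FPKM in D5-LSKCD201+ and 1.23, 1.12 and 1.24 FPKM in D5-LSKCD201-. Its log2 fold change of 0.60 (SE 0.10, limma adjusted p = 0.00107) missed the fold threshold although the groups did not overlap. Angpt2 lies within Mcph1, on the opposite strand with 0 shared exon bases, and Mcph1 averaged 8.29 FPKM in D5-LSKCD201+ and 14.9 FPKM in D5-LSKCD201-. Angpt1 (chr15:42424723-42676977, minus strand) was at 1.13, 1.03 and 1.12 FPKM in D5-LSKCD201+ and 1.501, 1.20 and 1.69 FPKM in D5-LSKCD201-. The interval of the log2 difference was -0.47 to 0.01 (limma adjusted p = 0.0789), and under quantile normalization the estimate turned to 0.03. Without replicate 2 of D5-LSKCD201- it was -0.31 (limma adjusted p = 0.0119), still inside the fold threshold.

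Against mESC, 9 of the 10 genes rose in D5-LSKCD201+ and 0 fell (19.5% and 18.1% of 13441 genes tested were higher and lower by limma), with 10 higher and 0 lower at an unadjusted p under 0.05 (40.5% and 45.5% of all genes). Cdh5, Vwf, Tie1, Angpt1 and Angpt2 were below 0.5 FPKM on average in mESC and entered the test only through D5-LSKCD201+, so they had to differ. On the log2(FPKM + 1) scale the largest change was 7.59 for Tie1 (SE 0.06), followed by 7.32 for Plvap (SE 0.04) and 6.72 for Cldn5 (SE 0.11). The ratio of mean FPKM gave another order, with 1850 for Cdh5, 786 for Tie1 and 179 for Plvap. Cdh5 averaged 0.0383 FPKM in mESC. Angpt1 had 0.94 (SE 0.07), with an average of 0.0918 FPKM in mESC. In D5-LSKCD201- cells, which share the mESC controls with that comparison, 6 were higher and 0 lower (10.9% and 3.48% of 13596 genes), with 10 higher and 0 lower at an unadjusted p under 0.05 by limma (34.8% and 25.1% of all genes). These 6 were Cdh5 (1.67), Cldn5 (1.68), Plvap (2.18), Tie1 (2.51), Tek (1.28) and Angpt1 (1.17) as log2 fold changes. The same 5 genes entered this test only through the D5 group. By the adjusted p alone, which 54.6% of all genes passed, 10 were higher. Nos3 overlapped between D5-LSKCD201- and mESC, and its limma adjusted p of 0.0499 became 0.0604 with the replicate number as a block.

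Against the hematopoietic cells of C57BL/6 mice, 8 genes were higher and 1 was lower when D5-LSKCD201+ was set against FL-LSKCD201+ (15.1% and 19.6% of 13627 genes by limma), and 8 were higher and 1 lower than in BM-LSKCD201+ (17.5% and 27.2% of 13775 genes). Both comparisons share the D5-LSKCD201+ libraries. The lower gene was Angpt1 in each. Angpt1 was at 38.4, 34.2 and 35.8 FPKM in FL-LSKCD201+ and 98.3, 96.0 and 94.4 FPKM in BM-LSKCD201+, with log2 fold changes of -4.15 (SE 0.08, limma adjusted p = 6.4e-08) and -5.54 (SE 0.06, limma adjusted p = 1.0e-09). The antisense gene Gm17473 shares 737 of the 5205 exon bases of Angpt1 and averaged at most 0.139 FPKM.

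**Figure D2:**
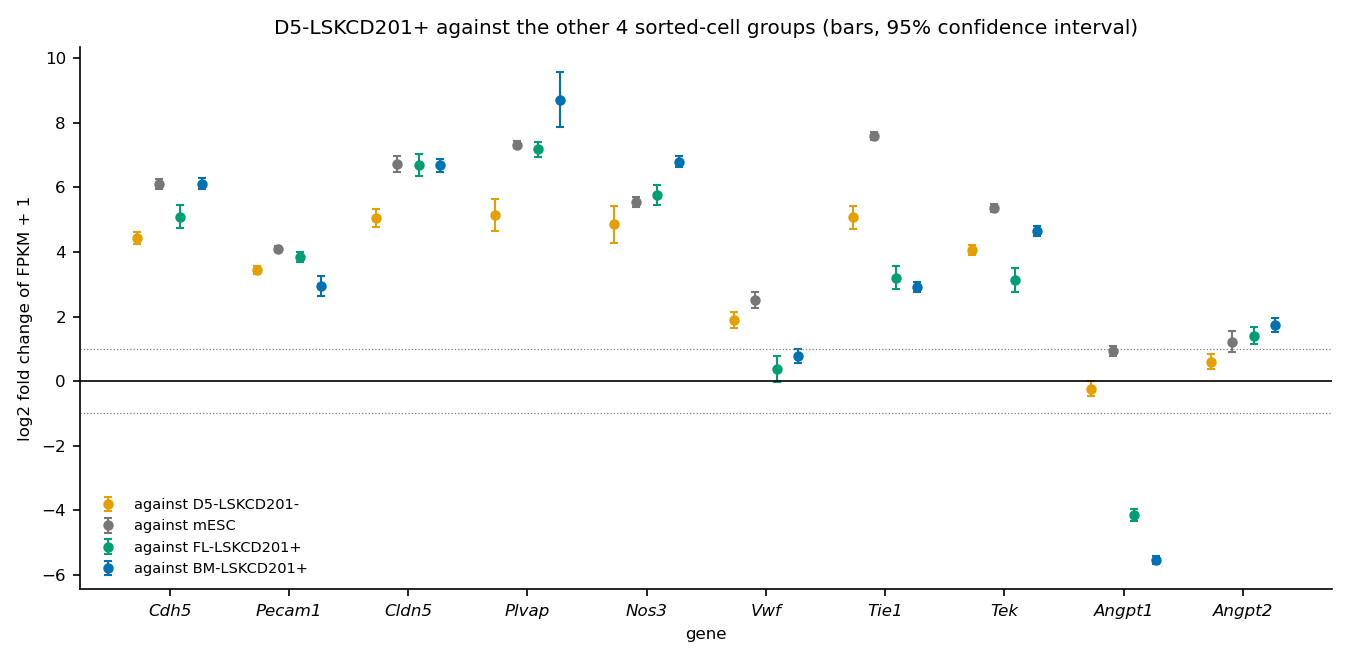
Log2 fold changes of FPKM + 1 in D5-LSKCD201+ against each of the other 4 sorted groups, by gene, with 95% confidence intervals and dotted lines at the fold threshold of 1. The same 3 D5-LSKCD201+ libraries enter every comparison. Angpt1 is below 0 against FL-LSKCD201+ and BM-LSKCD201+, at -4.15 and -5.54, and Vwf lies between 0 and 1 in those comparisons.

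Vwf was the other exception. It was at 3.69, 6.22 and 5.48 FPKM in FL-LSKCD201+ and 3.44, 3.60 and 3.72 FPKM in BM-LSKCD201+. Against FL-LSKCD201+ the log2 fold change was 0.38, with an interval of -0.03 to 0.79 (limma adjusted p = 0.0876), and the groups overlapped. Against BM-LSKCD201+ it was 0.77 (SE 0.09, limma adjusted p = 0.000129), inside the fold threshold, and 1.13 under quantile normalization. For the other members the log2 fold change of FPKM + 1 against FL-LSKCD201+ ran from 1.40 for Angpt2 to 7.18 for Plvap. Against BM-LSKCD201+ it ran from 1.73 for Angpt2 to 8.72 for Plvap. By the ratio of mean FPKM, Angpt2 (8.79) and Plvap (160) were also the ends against FL-LSKCD201+. Against BM-LSKCD201+ the ends by this ratio were Tie1 (7.71) and Cdh5 (1974), with Angpt2 at 226 and Plvap at 515. Angpt2 entered both tests only through D5-LSKCD201+, as did Cdh5 and Nos3 against BM-LSKCD201+.

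Both receptors were also measured in the hematopoietic cells. Tie1 was at 36.3, 31.5 and 30.7 FPKM in BM-LSKCD201+ and 34.3, 23.0 and 23.9 FPKM in FL-LSKCD201+. FL-LSKCD201+ was the lower at each replicate number, but the groups overlapped. The log2 difference of FL-LSKCD201+ against BM-LSKCD201+ was -0.29 and did not pass (interval -0.67 to 0.09, limma adjusted p = 0.167). Tek was at 11.7, 7.61 and 7.91 FPKM in FL-LSKCD201+ and 2.67, 2.42 and 2.37 FPKM in BM-LSKCD201+. D5-LSKCD201- lay between them for Tek, and below both for Tie1.

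Between FL-LSKCD201+ and BM-LSKCD201+, 9 of the 10 genes were tested, and 4 were higher and 1 lower in FL-LSKCD201+ (7.78% and 11.3% of 13503 genes by limma). Tek had a log2 fold change of 1.51 (SE 0.17, limma adjusted p = 0.000287), Plvap 1.54 (SE 0.38, limma adjusted p = 0.011, and 0.0768 at the same fold without the filter on low values), Nos3 1.03 (SE 0.16) and Cdh5 1.02 (SE 0.17). Cdh5 and Nos3 passed the filter on low values only through FL-LSKCD201+. Angpt1 was lower, at -1.39 (SE 0.08, limma adjusted p = 1.7e-05). Without replicate 1 of BM-LSKCD201+, Cdh5 and Nos3 fell to 0.99 each and left the count, and Pecam1 moved from -0.90 to -1.07 and entered it. The count became 2 higher and 2 lower. By the adjusted p alone, which 55.1% of all genes passed, Pecam1 also counted as lower. Albumin, a hepatocyte product, averaged 68.8 FPKM in FL-LSKCD201+ and 0.0411 FPKM in BM-LSKCD201+, and 10 hepatoblast markers summed to 568 to 781 FPKM against 107 to 116 FPKM, with Serpina1a at 0 in every BM-LSKCD201+ library. Their part in these differences was not tested.

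The balance of ligands and receptors was taken within each library as a difference of log2(FPKM + 1). Angpt2 minus Angpt1 was 0.67 ± 0.15 (SD, n = 3) in D5-LSKCD201+ against -0.16 ± 0.11 (SD, n = 3) in D5-LSKCD201-, with an exact two-sided permutation p = 0.1, the smallest that 3 against 3 libraries can give. In FL-LSKCD201+ it was -5.11 to -4.68 and in BM-LSKCD201+ -6.60 to -6.56. Angpt2 averaged 0.267 and 0.0104 FPKM there, so these values mostly restate the level of Angpt1. In mESC it was 0.14, 0.34 and 0.67, which overlapped D5-LSKCD201+ (0.53 to 0.83), at mean levels of 0.445 FPKM for Angpt2 and 0.0918 FPKM for Angpt1. Tek minus Tie1 was -1.55 ± 0.04 (SD, n = 3) in D5-LSKCD201+ against -0.54 ± 0.26 (SD, n = 3) in D5-LSKCD201- (exact permutation p = 0.1). It was -1.48 to -1.47 in FL-LSKCD201+, next to the D5-LSKCD201+ values, and -3.34 to -3.24 in BM-LSKCD201+. mESC was the only sorted group with more Tek than Tie1.

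**Figure D3:**
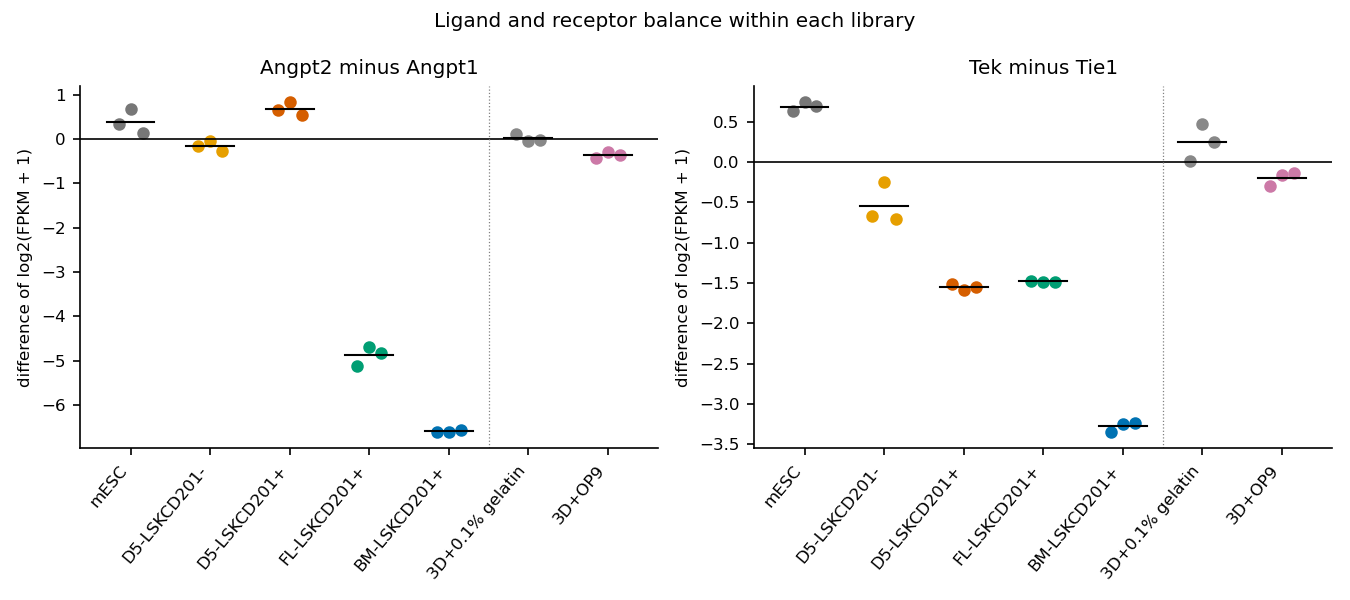
Differences of log2(FPKM + 1) between Angpt2 and Angpt1 (left) and between Tek and Tie1 (right) within each library, by group, with group means as lines. The dotted line separates sorted cells from day 5 total cells, which were normalized separately. FL-LSKCD201+ and BM-LSKCD201+ libraries lie at or below -4.68 for the ligands, and D5-LSKCD201+ libraries are at 0.67 on average.

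In day 5 total cells, every one of the 10 genes had all 3 3D+OP9 libraries above all 3 3D+0.1% gelatin libraries, a pattern that 13.9% of 18919 genes with a value above 0 showed. Of the members, 7 passed the filter, and 6 of these were higher and 0 lower in 3D+OP9 (2.11% of 12958 genes were higher and 0.509% lower by limma). At an unadjusted p under 0.05, 7 were higher and 0 lower, beside 13.2% and 9.77% of all genes. The median log2 fold change of the 7 was 2.49, against 0.01 for all genes. Cldn5, Nos3 and Tie1 passed only through 3D+OP9.

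Cdh5 was at 29.09, 31.58 and 24.9 FPKM in 3D+OP9 and 2.70, 0.77 and 1.71 FPKM in 3D+0.1% gelatin, with a log2 fold change of 3.49 (SE 0.25, limma adjusted p = 0.000726). It had the highest level of the 10 in 3D+OP9, while Plvap led in D5-LSKCD201+. Plvap was at 14.57, 17.87 and 21.44 FPKM against 3.19, 2.47 and 3.23 FPKM (log2 fold change 2.25, SE 0.16, limma adjusted p = 0.000722). Pecam1 was at 9.63, 11.53 and 16.66 FPKM against 1.87, 0.61 and 1.05 FPKM (log2 fold change 2.65, SE 0.26, limma adjusted p = 0.00215). All 3 exceeded the spread between replicates.

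Tie1 was at 9.12, 10.85 and 9.36 FPKM in 3D+OP9 and 0.80, 0.11 and 0.41 FPKM in 3D+0.1% gelatin (log2 fold change 2.93, SE 0.19, limma adjusted p = 0.000623). Tek was at 7.26, 9.6 and 8.4 FPKM against 0.81, 0.54 and 0.68 FPKM (2.49, SE 0.14, limma adjusted p = 0.000616). Nos3 was at 3.78, 5.49 and 3.22 FPKM against 0.46, 0.16 and 0.32 FPKM (1.96, SE 0.18, limma adjusted p = 0.00206). Tek differed by more than the spread between replicates. Tie1 and Nos3, which averaged 0.44 and 0.313 FPKM in 3D+0.1% gelatin, entered the test only through 3D+OP9, so they had to differ and their p-values are no support.

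Cldn5 was at 1.6, 1.53 and 0.98 FPKM against 0.19, 0.07 and 0.29 FPKM, and its log2 fold change of 0.996 lay just under the threshold (SE 0.15, limma adjusted p = 0.0101). It passed at 2.43 with a pseudocount of 0.1 and at 1.12 without replicate 3 of 3D+OP9. Vwf, Angpt1 and Angpt2 were below the filter. Angpt1 was at 0.75, 0.75 and 0.78 FPKM in 3D+OP9 and 0.14, 0.21 and 0.24 FPKM in 3D+0.1% gelatin. Angpt2 was at 0.30, 0.42 and 0.39 FPKM and 0.23, 0.17 and 0.23 FPKM, and Vwf at 0.26, 0.30 and 0.51 FPKM and 0.05, 0.02 and 0.04 FPKM. Within libraries, Angpt2 minus Angpt1 was -0.36 in 3D+OP9 and 0.02 in 3D+0.1% gelatin, and Tek minus Tie1 was -0.20 and 0.24 (exact permutation p = 0.1 for each, n = 3). Both ligands in every library, and both receptors in 3D+0.1% gelatin, lay under the pseudocount of 1 FPKM, so these values are near the floor. The plain ratio of Tek to Tie1 in 3D+0.1% gelatin ran from 1.01 to 4.91.

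**Figure D4:**
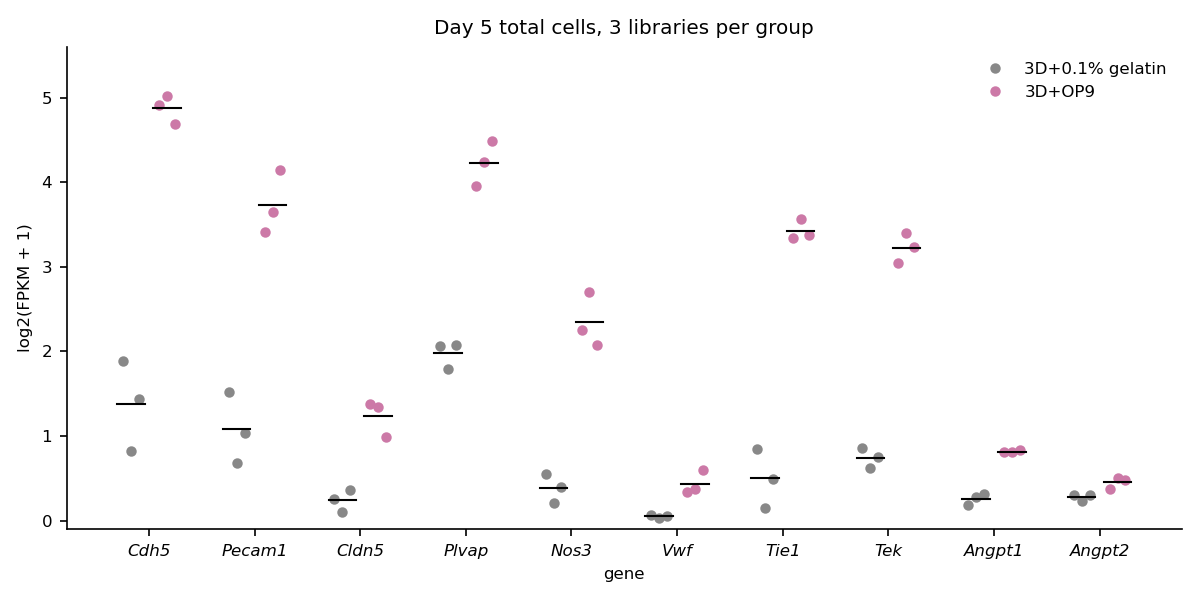
Expression of the 10 genes in day 5 total cells, on a log2(FPKM + 1) scale, with 1 point per library and the group mean as a line. For each gene the 3 libraries of 3D+OP9 lie above the 3 of 3D+0.1% gelatin.

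Markers of other cells were read in the same comparison, in which 2.11% of all genes tested were higher and 0.509% lower by limma. At an unadjusted p under 0.05 these shares were 13.2% and 9.77%. The sum of 18 stromal markers was 107 to 119 FPKM in 3D+OP9 and 64.6 to 78.2 FPKM in 3D+0.1% gelatin, and 4 of 16 tested were higher and 0 lower (9 and 0 at an unadjusted p under 0.05 by limma), 1 of them tested only through 3D+OP9. The sum of 15 hematopoietic markers was 26.2 to 37.5 FPKM against 12.0 to 13.1 FPKM, with Cd48 at 0 in every 3D+0.1% gelatin library, and 6 of 9 tested were higher and 0 lower (6 and 1 unadjusted by limma), 4 of them tested only through 3D+OP9. The sum of 11 megakaryocyte markers was 12.3 to 13.7 FPKM against 1.36 to 1.47 FPKM, with Treml1 at 0 in every library. The 3 that could be tested passed the filter only through 3D+OP9 and so had to be higher there. The 10 pluripotency markers summed to 959, 954 and 1848 FPKM in 3D+OP9 against 1312 to 1395 FPKM. The groups overlapped only through replicate 3 of 3D+OP9, which stood apart, and its other libraries lay below 3D+0.1% gelatin. Of the 10, 4 were higher and 0 lower (5 and 3 unadjusted by limma). The 10 hepatoblast markers summed to 27.4 to 41.9 FPKM against 10.5 to 33.7 FPKM, so the groups overlapped, with 1 of 4 tested higher and 0 lower by limma. The higher gene was Dlk1, which made up most of the sum (31.7 and 12.3 FPKM). Of the 10, 5 averaged higher and 4 lower in 3D+OP9. Among the sorted groups, stromal markers summed to 130 to 137 FPKM in D5-LSKCD201+ and 58.7 to 89.8 FPKM in D5-LSKCD201-, and none of the 18 was at 0 throughout either group. Of 16 stromal markers tested there, 4 were higher and 1 lower (9 and 3 unadjusted by limma), 1 of the higher ones tested only through D5-LSKCD201+. Among all genes tested between the D5 groups, 10.8% were higher and 13.9% lower (30% and 41.1% unadjusted by limma). The 10 hepatoblast markers summed to 160 to 176 FPKM in D5-LSKCD201+ and 17.97 to 28.3 FPKM in D5-LSKCD201-, and 2 of 6 tested were higher and 3 lower by limma, all 3 lower ones tested only through D5-LSKCD201-. Most of that sum came from Dlk1 (120 and 10.5 FPKM) and Trf (43.7 and 3.86 FPKM), while Apoa1 averaged 0.132 FPKM in D5-LSKCD201+ and 4.47 FPKM in D5-LSKCD201-, and Hnf4a 0.099 and 1.85 FPKM. The part of these cells in the levels of the 10 genes was not tested.

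Other genes of the same systems were read from lists that exclude the 10 members, with log2 fold changes in parentheses. Of all genes tested, 10.8% rose and 13.9% fell in D5-LSKCD201+ relative to D5-LSKCD201-, and 2.11% rose and 0.509% fell in 3D+OP9. At an unadjusted p under 0.05, these shares came to 30% and 41.1% for the sorted cells and to 13.2% and 9.77% for 3D+OP9. A gene that passed the filter on low values through 1 group alone had to be higher in that group, and such genes are counted where the calls of a list held any. Of 29 measured pan-endothelial genes, 28 rose and 0 fell in D5-LSKCD201+ relative to D5-LSKCD201- by limma, with 29 higher and 0 lower at an unadjusted p under 0.05 and a median log2 fold change of 3.53, and 1 of the 28 was tested only through D5-LSKCD201+. Clec14a (5.04), Icam2 (4.79), Esam (4.56), an adhesion molecule of tight junctions, and Rasip1 (4.52) had the largest changes. In 3D+OP9, 17 of 27 tested were higher and 1 lower, with a median of 1.19 (26 and 1 at an unadjusted p under 0.05 by limma), led by Rasip1 (2.305), Cd34 (2.26), Tal1 (2.19) and Sox18 (2.16). Of the 17, 5 were tested only through 3D+OP9.

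Junction partners split. In D5-LSKCD201+, 9 of 34 tested were higher than in D5-LSKCD201-, and 8 were lower, beside 10.8% and 13.9% of all genes. At an unadjusted p under 0.05, 20 were higher and 11 lower by limma, beside 30% and 41.1%. Of the 9, 1 was tested only through D5-LSKCD201+, and of the 8, 2 only through D5-LSKCD201-. The lower genes included the epithelial junction genes Cldn6 (-5.78), Cdh1 (-5.35), the cadherin of epithelial and pluripotent cells, and Cldn7 (-4.82). Cdh1 averaged 0.759 FPKM in D5-LSKCD201+ and 72.6 FPKM in D5-LSKCD201-, the reverse of Cdh5. In 3D+OP9, 2 of 34 were higher, Esam (1.93) and Jam2 (1.43), and 2 lower (beside 2.11% and 0.509% of all genes), Marveld2 (-1.05) and Ocln (-1.04), both of tight junctions. At an unadjusted p under 0.05, 5 were higher and 11 lower by limma, beside 13.2% and 9.77% of all genes.

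Of 22 tested genes around Tie2 signaling, 7 rose and 2 fell in D5-LSKCD201+ relative to D5-LSKCD201-, beside 10.8% and 13.9% of all genes, with 11 and 7 at an unadjusted p under 0.05 by limma, beside 30% and 41.1%. Ptprb, the vascular endothelial phosphatase that dephosphorylates Tie2, averaged 4.79 FPKM against 0.157 FPKM (log2 fold change 2.32) and was the 1 gene of the 7 tested only through D5-LSKCD201+, and the adaptor Grb7 averaged 0.996 FPKM against 33.1 FPKM (-4.10). Itga5 (2.20) and Shc1 (1.502) were also higher. In 3D+OP9, 0 of 21 were higher and 1 lower, the adaptor Dok2 (-1.18), with 4 higher and 4 lower at an unadjusted p under 0.05 by limma.

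Of 14 nitric oxide pathway genes tested, 4 rose and 2 fell in D5-LSKCD201+, beside 10.8% and 13.9% of all genes, with 6 and 5 at an unadjusted p under 0.05 by limma, beside 30% and 41.1%. Cav1, the caveolin that binds and inhibits endothelial nitric oxide synthase, had a log2 fold change of 4.08, Cav2 2.92 and Gch1, which makes the cofactor precursor of the synthase, 1.27, and the chaperone Hsp90aa1 had -2.13. In 3D+OP9, 0 of 16 were higher and 0 lower by limma, with 4 and 1 at an unadjusted p under 0.05. Of 12 genes of Vwf storage and partners, 4 rose and 0 fell in D5-LSKCD201+ (9 and 0 at an unadjusted p under 0.05 by limma), among them Itga2b (3.27), Mmrn1 (2.04) and Gp1ba (1.51), of which Mmrn1 and Gp1ba were tested only through D5-LSKCD201+ and had to be higher. In 3D+OP9, 2 of 11 were higher and 0 lower (3 and 0 unadjusted by limma), Itga2b (2.51) and Itgb3 (1.97), both tested only through 3D+OP9, so this count is no support.

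Across the 15 sorted libraries, which fall into 5 groups, the genes with the pattern most like each member were ranked by Pearson's r among 14457 genes, as a description. Those for Cdh5 were Fmo1 (0.996), Plagl1 and Ednrb, for Pecam1 Pcdhb22 (0.995) and Gnb4, and for Cldn5 Tmem255a (0.997), Chrdl1 and Lama4. Those for Plvap were Pdia5 (0.990), Arhgap28 and Slc31a2, for Nos3 Gas7 (0.994), Efnb2 and Dok4, and for Vwf Egfl7 (0.986), Hoxb5 and Rasd1. Those for Tie1 were Itga2b (0.995), Sh3bp5 and Sh2d3c, and for Tek Dll4 (0.994), Rasgrp3 and Cpxm1. Angpt1 was closest to Arsb (0.998), Rhof and Tnfaip8, and Angpt2 to Cgnl1 (0.984), Pdia6 and Peg3. Among the members themselves, r was 0.983 for Cdh5 and Cldn5, 0.984 for Nos3 and Plvap and 0.932 for Tie1 and Vwf, and -0.68 for Angpt1 and Angpt2. These values rest on differences between groups of 3 libraries each.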

How the data were processed

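RNA-seq libraries came from 2 day 5 total cell groups and 5 sorted groups. Per the labels and the study's methods, TRIzol RNA went into mRNA-seq libraries, HISAT2 2.0.5 placed the reads on GRCm38 and StringTie 1.3.3 gave the expression values. The submitters' processing notes also name Cuffdiff 1.3.0 and list another mouse genome build beside GRCm38. Positions given for the sorted cells equaled the GRCm38 genes for Pecam1, Vwf, Tie1 and Tek. For the other members the span given overlapped the GRCm38 gene but differed at an end or at both. The authors deposited FPKM in 2 tables, which were normalized separately, so tests stayed within a table. Sequencing depth is unknown, and no precision is given beyond the spread of 3 libraries. FPKM summed to 483263 to 508307 per library in total cells and 508622 to 620332 in sorted cells, and 8 housekeeping genes were above 0 in every library. The strand setting of the counting is not given in the sources used here.

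A pseudocount of 1 was added to each FPKM before log2, which understates the fold of low genes. Genes averaging 0.5 FPKM or more in the 6 libraries compared were tested with limma 3.58.1 (trend, two-sided) in R 4.3.3, with Benjamini-Hochberg adjustment over all of them. A call needed 0.05 as the limit of the adjusted p and a log2 fold change of 1 or more in either direction. Within-library differences were compared by exact permutation. Figures were drawn with matplotlib 3.10.9 in Python 3.11.15. The code was tested on simulated data. The named genes were all members, up to 4 called genes of each list with the largest changes in D5-LSKCD201+ against D5-LSKCD201- and 3D+OP9 against 3D+0.1% gelatin, and the 3 genes closest to each member, except for items that are not reported here. Albumin, Ptprc, Procr and markers at 0 were named as checks of the labels. Spi1, Coro1a and Gp5 were named to show which markers raised a sum or went against it, and further genes because they overlap a member. The members and lists were chosen with earlier results of these data known. Groups and replicates came from the labels. The same replicate numbers deviated together in FL-LSKCD201+ and BM-LSKCD201+ only, where every correlation was over 0.1 (0.248, 0.204 and 0.167). Replicate 1 stood apart in both FL-LSKCD201+ and BM-LSKCD201+. Settings also tried were another pseudocount (0.1), a stricter filter (1 FPKM) or none, a block for the replicate number, quantile normalization, a prior variance without trend, the adjusted p alone, all 5 sorted groups in one fit, leaving out each library, and, chosen after seeing the data, averaging the closest pair of replicates.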

Additional observations from a re-analysis of the deposited data

How the results depend on the processing

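Of 208 counts of members called under an alternative, 185 equaled the reported count, 18 differed by at most 2 genes and within 1.5 times, and 5 differed by more. All 32 within-library differences under an alternative kept their sign, but those in total cells rest partly on levels under the pseudocount of 1 FPKM. With the adjusted p alone, 10 members were higher in D5-LSKCD201- than in mESC, and 2 were lower in FL-LSKCD201+ than in BM-LSKCD201+. With a filter at 1 FPKM, 2 were higher in FL-LSKCD201+ than in BM-LSKCD201+, since fewer genes were tested. Leaving out each library in turn gave 2 to 4 higher and 1 to 2 lower in that comparison, the extremes coming without replicate 1 of BM-LSKCD201+. Among single genes, 943 values kept their direction and their side of the threshold, 18 became past the threshold, 5 no longer passed it and 5 changed sign. Angpt1 in D5-LSKCD201+ against D5-LSKCD201- became 0.032 under quantile normalization. Cldn5 in FL-LSKCD201+ against BM-LSKCD201+, near 0 at first, became -0.000593 with a pseudocount of 0.1, -0.011 with the closest pair averaged, and -0.15 and -0.089 without replicate 2 of FL-LSKCD201+ and replicate 1 of BM-LSKCD201+, within a range of -0.15 to 0.13 over the libraries left out in turn. The cause was not tested. Plvap in that comparison lost its call without a filter (limma adjusted p = 0.0768). Quantile normalization moved the median of all genes by 0.10 in D5-LSKCD201+ against D5-LSKCD201-, by 0.20 against BM-LSKCD201+ and by 0.11 in FL-LSKCD201+ against BM-LSKCD201+. With the replicate number as a block, the counts stayed at 6 higher in 3D+OP9, 8 in D5-LSKCD201+ against D5-LSKCD201-, 9 and 6 in D5-LSKCD201+ and D5-LSKCD201- against mESC, and 4 higher and 1 lower in FL-LSKCD201+ against BM-LSKCD201+, and the block changed no call of a member. Low members such as Vwf, Angpt1 and Angpt2 in total cells could not be tested at the filter used.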
